A study of Mus musculus with 12 samples.

Results

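Interferon-stimulated genes and the genes of MHC class I antigen presentation were followed in mouse muscle stem cells (MuSCs) as a group of 44 genes chosen by name: receptors, transcription factors, sensors, antiviral effectors, the ISG15 modifier with its protease, further induced genes, and the antigen presentation machinery. The immunity-related and guanylate-binding GTPases, which are also interferon-induced, were left out of the group. Of the 44 genes, 43 were listed among the 16169 genes of the table that compares genotypes and 42 among the 16503 genes of the table that compares MuSCs with myoblasts. Oas2 was in neither table and Oas1a was only in the former. All listed members passed the filter on low values and were tested, among 15304 genes in the first table and 15345 in the second.

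RNA was sequenced from 12 libraries of 1000 cells each, made with a SMART-Seq kit that amplifies full-length cDNA. In the first table are MuSCs of male mice aged 5 to 6 weeks, 3 WT and 3 Nedd4L-cKO. The second holds freshly isolated MuSCs and primary myoblasts from 3 WT mice, whose age is not given in the sources used here, with both libraries of a mouse sharing a replicate number from 04 to 06. Nedd4L-cKO mice are Nedd4L fl/fl Pax7 cre/+ on a C57BL/6 background: Cre is expressed from the Pax7 locus, which is active in MuSCs and their precursors, and removes a floxed exon of the ubiquitin ligase gene Nedd4l, whose remaining transcript can still be sequenced. Whether the WT mice carried Cre or the floxed allele is not given in the sources used here. MuSCs were sorted as ITGA7+, Hoechst+ cells negative for CD31, CD45, CD11b and SCA1, and myoblasts had grown for 3 days in Ham's F10 with serum and bFGF, so culture itself and the change of cell state cannot be told apart.

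Type I interferons act through a receptor of IFNAR1 and IFNAR2, and STAT2 and IRF9 then act in a complex that binds the interferon-stimulated response element (ISRE). Interferon gamma acts through IFNGR1 and IFNGR2 on genes with a gamma-activated site (GAS), and it induces IRF1, which in turn raises the MHC class I heavy chains, beta-2 microglobulin, the TAP peptide transporter and the immunoproteasome. Class I molecules show peptides cut by the proteasome to cytotoxic T cells. Stem cells of several tissues are known to express some interferon-stimulated genes without infection.

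Promoters were read from RefSeq on GRCm38.p6, as the 250 bases before each annotated start, for the 33 members that the table held. Promoters were not held for Nlrc5, Dhx58, Zbp1, Oas2, Mx1, Mx2, Usp18, Parp9, Parp14, Rtp4 and Tap2. The 5 windows below are shown because they belong to B2m and Ifit1, which rose in Nedd4L-cKO MuSCs, to Irf1 and Psmb8, which had the lowest log2 fold changes of RPM + 1 in myoblasts, and to Ifit3, which was listed at 0 in 1 fresh MuSC library. Each runs 5′ to 3′ on the gene's strand, and all 5 genes lie on the plus strand. Capitals mark an ISRE core (GAAANNGAAA, searched on both strands) in the first 3 and a GAS (TTCNNNGAA, which reads the same on both strands) in the last 2. The windows are chr2:122147437-122147686 for B2m, chr19:34640639-34640888 for Ifit1, chr19:34583279-34583528 for Ifit3, chr11:53769764-53770013 for Irf1 and chr17:34197945-34198194 for Psmb8.
B2m: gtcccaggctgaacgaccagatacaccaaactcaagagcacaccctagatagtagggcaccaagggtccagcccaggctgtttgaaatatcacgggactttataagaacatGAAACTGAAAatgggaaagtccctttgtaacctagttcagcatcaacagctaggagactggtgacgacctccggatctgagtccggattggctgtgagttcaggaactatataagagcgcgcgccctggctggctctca
Ifit1: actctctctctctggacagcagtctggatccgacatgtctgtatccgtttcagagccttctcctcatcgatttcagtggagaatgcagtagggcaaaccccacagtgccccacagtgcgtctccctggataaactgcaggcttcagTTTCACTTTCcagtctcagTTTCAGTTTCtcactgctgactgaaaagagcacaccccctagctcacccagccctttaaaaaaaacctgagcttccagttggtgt
Ifit3: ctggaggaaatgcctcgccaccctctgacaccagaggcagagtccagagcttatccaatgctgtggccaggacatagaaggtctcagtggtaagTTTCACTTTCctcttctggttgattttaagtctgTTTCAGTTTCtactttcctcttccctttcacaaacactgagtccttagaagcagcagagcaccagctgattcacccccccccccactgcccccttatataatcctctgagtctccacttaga
Irf1: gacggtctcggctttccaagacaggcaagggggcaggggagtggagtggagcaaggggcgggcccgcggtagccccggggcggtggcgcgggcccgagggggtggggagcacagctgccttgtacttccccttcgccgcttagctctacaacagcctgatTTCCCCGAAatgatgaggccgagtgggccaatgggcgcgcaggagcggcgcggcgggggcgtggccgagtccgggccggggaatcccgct
Psmb8: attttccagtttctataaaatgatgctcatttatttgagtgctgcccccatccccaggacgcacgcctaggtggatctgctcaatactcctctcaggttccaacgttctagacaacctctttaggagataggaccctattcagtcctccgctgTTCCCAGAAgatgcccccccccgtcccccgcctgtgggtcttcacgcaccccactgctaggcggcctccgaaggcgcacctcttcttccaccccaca

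The single ISRE core of B2m began 139 bases before the start, and those of Ifit1 began 104 and 85 bases before it. In Ifit3 they began at 156 and 122 bases, and its paralog Ifit3b held the same pair at 188 and 154 bases. The windows of these paralogs were identical in 217 of 224 aligned columns. The GAS of Irf1 began 90 bases before the start and that of Psmb8 97 bases before it. Irf1 has a second annotated start whose window held neither motif. The ISRE core was in 9 of the 33 members with a promoter (27.3%), against 936 of 27025 genes (3.46%), and the 9 were B2m, Bst2, Ifit1, Ifit3, Ifit3b, Isg15, Oas1a, Rsad2 and Stat2. Matches in Bst2, Isg15 and Oas1a overlapped within a run of repeated units. The GAS was in 8 members (24.2%), against 2197 of the 27025 genes (8.13%). The windows of Psmb9 and Tap1, neighbours on chromosome 17 that are transcribed away from each other, shared 225 bases and held neither motif. Neither motif was in the windows of H2-K1 and H2-D1. A match is a run of letters and not a measured site.

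Values are given as RPM, normalized counts scaled by the mean total of the table's 6 libraries. The totals were 40323468 to 50687122 normalized counts in the first table and 33189802 to 37595659 in the second, and the read depth is unknown. Nedd4l was at 70.2, 96.4 and 66.7 RPM in WT and 30.2, 36.3 and 22.5 RPM in Nedd4L-cKO MuSCs. All 8 MuSC markers examined, Pax7 among them, were listed in every group, and 7 of the 8 were called lower in myoblasts. Between genotypes 1 of the 8 was called, Cd34, which was lower in Nedd4L-cKO MuSCs. Of 16 leukocyte markers, 9 were not listed in the first table and 10 in the second, and Ptprc, which encodes CD45, stayed under 1 RPM in all 12 libraries. In bulk samples, fewer cells of a type and less RNA per cell cannot be told apart.

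In Nedd4L-cKO MuSCs, B2m, Rtp4 and Ifit1 rose, and no member fell. B2m encodes the light chain shared by all class I molecules, Rtp4 a chaperone of receptor traffic that is induced by interferon, and Ifit1 a protein that binds viral RNA lacking a host cap. A call between genotypes needed a limma adjusted p of at most 0.05, a mean of 5 RPM or more and a log2 fold change of 1 or more in either direction. They were 3 of 43 members tested, beside 0.451% of all tested genes called higher. Most other members lay on the same side of 0 without passing. The log2 fold change was above 0 in 36 of 43 members, beside 50.1% of all genes, and its median was 0.54, beside 0.0015 over all genes. At an unadjusted p under 0.05, 20 members were higher, beside 7.51% of all genes, and 0 were lower, beside 7.13% (0 members were lower by the adjusted limma test as well). All 3 Nedd4L-cKO values lay above all 3 WT values in 20 members, beside 9.75% of all genes.

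**Figure D1:**
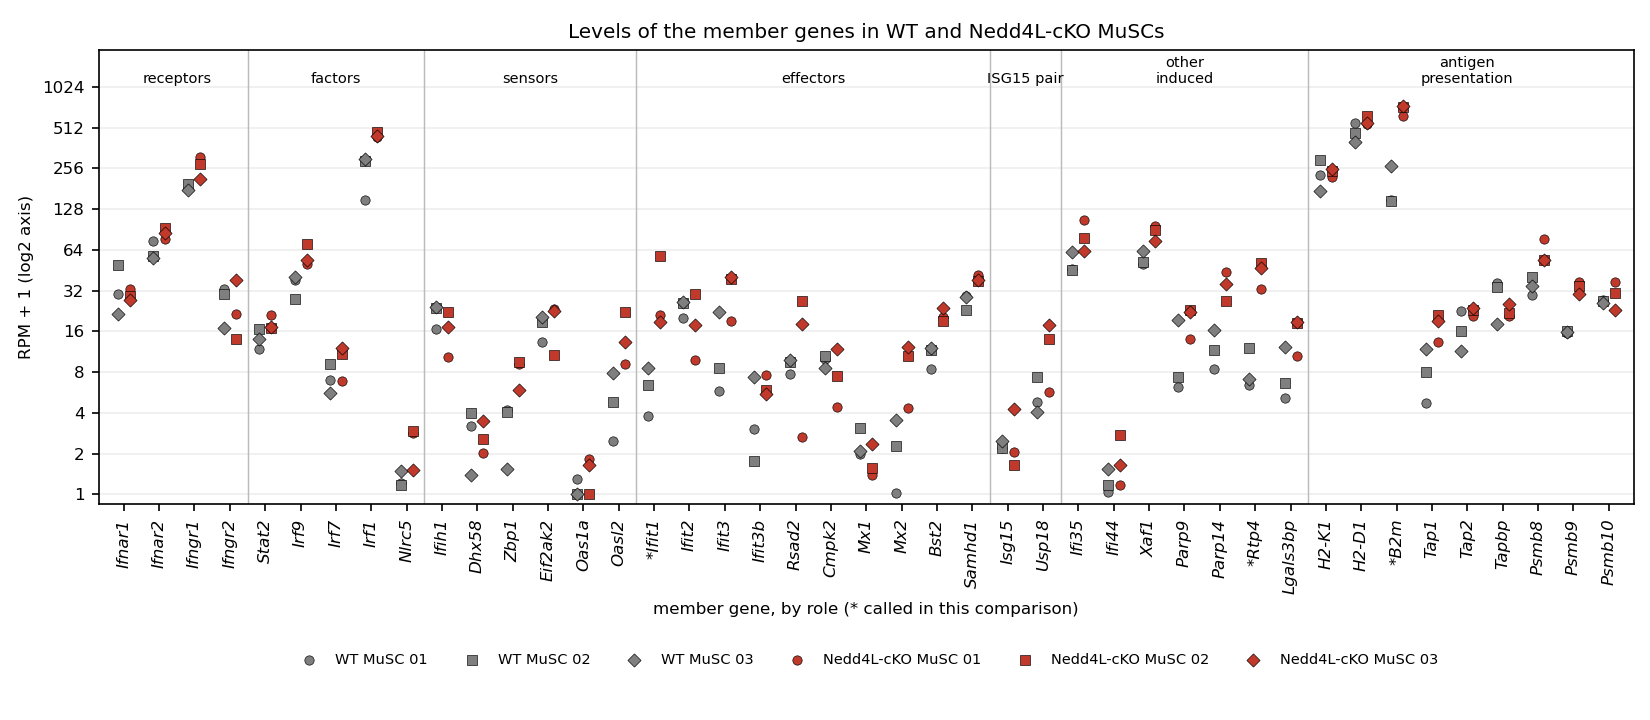
RPM + 1 on a log2 axis for the 43 member genes listed, with 1 point for each WT MuSC (grey) and Nedd4L-cKO MuSC (red) library, the replicate given by the symbol and the 7 roles set apart by lines. An asterisk marks the 3 called genes, Ifit1, Rtp4 and B2m, whose red points all lie above the grey ones, while those of H2-K1 and H2-D1 overlap.

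In WT MuSCs B2m stood at 149, 145 and 263 RPM, and in Nedd4L-cKO MuSCs at 623, 720 and 737 RPM. The lowest Nedd4L-cKO library was above the highest WT library. The log2 fold change was 1.95 (standard error 0.28, adjusted p = 0.00900 by limma). The gene lies at chr2:121977957-121983594 on the plus strand of GRCm39. The class I heavy chains it pairs with were not called. H2-K1 was at 226, 296 and 172 RPM in WT and 220.5, 244 and 251 RPM in Nedd4L-cKO MuSCs, and the groups overlapped. H2-D1 was at 552, 462 and 397 RPM in WT and 545, 625 and 551 RPM in Nedd4L-cKO, again with overlap, and its log2 fold change was 0.30 (95% interval -0.21 to 0.81, limma adjusted p = 0.597). The ratio of B2m to H2-K1 within a library was 0.659, 0.492 and 1.54 in WT and 2.83, 2.95 and 2.93 in Nedd4L-cKO MuSCs, so it was higher in each Nedd4L-cKO library.

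Rtp4 was at 5.39, 10.96 and 6.09 RPM in WT and 31.8, 50.4 and 46.1 RPM in Nedd4L-cKO MuSCs. The groups were far apart, and the log2 fold change was 2.40 (standard error 0.33, adjusted p = 0.00894 by limma). Ifit1 was at 2.79, 5.48 and 7.58 RPM in WT and 20.2, 56.6 and 17.7 RPM in Nedd4L-cKO. The groups did not overlap, but Nedd4L-cKO 02 was well above the other two. The log2 fold change of Ifit1 was 2.25 (standard error 0.46, adjusted p = 0.0490 by limma), and the adjusted p exceeded 0.05 under 10 of 14 alternative settings, the highest being 0.164 without Nedd4L-cKO 02. Without Nedd4L-cKO 02, none of the 43 members was called by limma (15 were higher and 1 lower at an unadjusted p under 0.05), and the adjusted p was 0.0733 for B2m and 0.0721 for Rtp4, with log2 fold changes of 1.92 and 2.27. Without WT 03, 5 members were called, which added Ifit3 and Parp14.

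The mural cell markers Rgs5, Pdgfrb, Acta2, Myh11, Kcnj8 and Notch3 summed to 1193 to 1932 RPM in WT and 2185 to 3244 RPM in Nedd4L-cKO MuSCs, with 0 of 6 called. The 10 myofiber markers summed to 171 to 359 RPM in WT and 438 to 552 RPM in Nedd4L-cKO, with 0 of 10 called. Both sums were therefore higher in every Nedd4L-cKO library, as B2m, Rtp4 and Ifit1 were. Other sums overlapped between genotypes. The fibro-adipogenic markers summed to 1771 to 3094 RPM in WT and 1669 to 3648 RPM in Nedd4L-cKO. Dcn among them was uneven, at 1091, 193 and 1237 RPM in WT and 2208, 672 and 210 RPM in Nedd4L-cKO. Endothelial sums were 64.0 to 106 RPM and 53.4 to 95.4 RPM, and Schwann sums 14.5 to 34.2 RPM and 4.44 to 25.4 RPM. Cd34, a surface marker of quiescent MuSCs, was at 267, 349 and 243 RPM in WT and 116, 102 and 62.5 RPM in Nedd4L-cKO MuSCs, with no overlap (log2 fold change -1.64, standard error 0.29, adjusted p = 0.0293 by limma). The part of these markers in the rises of the 3 members was not tested. The leukocyte markers listed summed to 3.47 to 40.4 RPM in WT and 2.98 to 10.4 RPM in Nedd4L-cKO, and the highest sum, in WT 03, was mostly Lyz2.

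Among the receptors, the highest mean RPM over the 6 libraries, not corrected for length, was that of Ifngr1, the ligand-binding chain for interferon gamma, at 180, 195.5 and 177 RPM in WT and 308, 275 and 212 RPM in Nedd4L-cKO MuSCs. All Nedd4L-cKO values were higher, but the log2 fold change of 0.51 (SE 0.24) was not called (limma adjusted p = 0.359). Ifnar2 did not overlap between groups either, and Ifnar1 and Ifngr2 did.

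Of the 5 transcription factors, 4 had all Nedd4L-cKO values above all WT values, beside 9.75% of all genes, and none was called. Irf1 was at 150, 291 and 296 RPM in WT and 436, 473 and 443 RPM in Nedd4L-cKO MuSCs. WT 01 was the lowest of the 6 libraries. The log2 fold change was 0.94 (standard error 0.29, adjusted p = 0.173 by limma). Irf9, which joins STAT2 on the ISRE, was at 26.8 to 39.3 RPM in WT and 49.6 to 69.8 RPM in Nedd4L-cKO. Nlrc5, the transactivator of class I genes and also among these 4, stayed under 2 RPM in all 6 libraries.

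The sensors detect foreign nucleic acid. Ifih1, which encodes the RNA sensor MDA5, had the highest mean RPM over the 6 libraries, though not within Nedd4L-cKO MuSCs, where that of Eif2ak2 was higher. It was at 15.6, 22.9 and 23.1 RPM in WT and 9.34, 21.2 and 16.3 RPM in Nedd4L-cKO MuSCs, with overlap (log2 fold change -0.42, standard error 0.34, adjusted p = 0.608 by limma). Zbp1, a sensor of Z-form nucleic acid, was at 0.547 to 3.21 RPM in WT and 4.87 to 8.49 RPM in Nedd4L-cKO. Oasl2, of the oligoadenylate synthetase family, was at 1.499 to 6.93 RPM in WT and 8.15 to 21.2 RPM in Nedd4L-cKO. Neither pair of ranges overlapped and neither gene was called. Dhx58 and Eif2ak2 (the kinase PKR) overlapped between groups, as did Oas1a, which was listed at 0 in 3 of the 6 libraries.

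The effectors were uneven. Samhd1, a hydrolase of deoxynucleotides with the highest mean RPM of the effectors, was at 28.3, 22.0 and 27.6 RPM in WT and 40.5, 36.6 and 37.1 RPM in Nedd4L-cKO MuSCs. The groups did not overlap (log2 fold change 0.54, standard error 0.25, adjusted p = 0.347 by limma). Mx2, a dynamin-like GTPase, was at 0.0309 to 2.55 RPM in WT and 3.37 to 11.3 RPM in Nedd4L-cKO, and Bst2, which tethers virus particles to the cell, at 7.49 to 11.1 RPM and 18.0 to 22.7 RPM. Against these, Ifit2, Cmpk2 and Mx1 had log2 fold changes below 0 with overlapping groups. Nedd4L-cKO 01 was the lowest of its group for Ifit2 (8.77 RPM beside 29.1 and 16.8 RPM) and for Rsad2 (1.64 RPM beside 25.6 and 17.3 RPM), and over all members it was the lowest Nedd4L-cKO library in 24 of 43 (55.8%, beside 34.6% of all genes). Reads of near-identical paralogs, such as Ifit3 and Ifit3b, may have been divided between them.

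Isg15, the ubiquitin-like modifier itself, stayed between 0.650 and 3.25 RPM in the 6 libraries. Usp18, the protease that removes it and restrains type I signalling, was at 3.799, 6.42 and 3.06 RPM in WT and 4.71, 13.1 and 16.7 RPM in Nedd4L-cKO MuSCs. The ranges overlapped (log2 fold change 1.10, standard error 0.45, adjusted p = 0.298 by limma). Among the other induced genes, Xaf1, an antagonist of the apoptosis inhibitor XIAP, had the highest mean RPM and did not overlap, at 49.3, 50.7 and 61.9 RPM in WT and 95.2, 89.3 and 73.8 RPM in Nedd4L-cKO (log2 fold change 0.66, standard error 0.24, adjusted p = 0.245 by limma). Parp14, an ADP-ribosyltransferase, was at 7.40 to 15.5 RPM in WT and 26.0 to 42.6 RPM in Nedd4L-cKO.

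Of the 9 antigen presentation genes, Tap1, Psmb8 and Psmb9 also had non-overlapping, higher values in Nedd4L-cKO MuSCs, beside 9.75% of all genes. Tap1, a chain of the peptide transporter, was at 3.76 to 10.8 RPM in WT and 12.3 to 19.97 RPM in Nedd4L-cKO. Psmb9, an interferon-inducible proteasome subunit, was at 14.6 to 15.2 RPM in WT and 29.1 to 35.9 RPM in Nedd4L-cKO. None of the 3 was called, and Tap2, Tapbp and Psmb10 overlapped.

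Genes of the same pathway outside the group were taken from a list of 61 names, in which Ddx58, Cgas and Sting1 each stood under 2 names. They gave 2 calls out of 50 tested. Both were higher in Nedd4L-cKO MuSCs, beside 0.451% of all tested genes called higher. Ifitm3, a membrane protein that blocks virus entry, was at 559, 480 and 649 RPM in WT and 1812, 1365 and 1278 RPM in Nedd4L-cKO MuSCs, with no overlap (log2 fold change 1.39, limma adjusted p = 0.0299). Trex1, a cytosolic DNA exonuclease, rose by a log2 fold change of 1.33 (limma adjusted p = 0.0465). The list's median was 0.30. Of 28 further antigen presentation genes tested, 2 rose, beside 0.451% of all tested genes. They were the class I genes H2-Q6 and H2-Q7, whose reads are hard to tell apart, with log2 fold changes of 1.98 and 2.13 (limma adjusted p = 0.0467 for each). The median of these 28 was 0.16.

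In myoblasts the group fell. Of 42 members tested, 25 were called lower than in the MuSCs of the same mice at a limma adjusted p of at most 0.05, beside 20.6% of all tested genes, and none was called higher, beside 22.2% (0 members were higher at an unadjusted p under 0.05 too). The median log2 fold change was -1.69, beside 0.039 over all genes. All 3 myoblast values lay below all 3 MuSC values in 26 members, beside 26.8% of all genes. The falls were counted in 2 of 4 receptors, 3 of 5 factors, 4 of 5 sensors, 3 of 10 effectors, 1 of the 2 genes of the ISG15 system, 5 of 7 other induced genes and 7 of 9 antigen presentation genes. The number called ran from 19 to 29 when a library was left out.

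**Figure D2:**
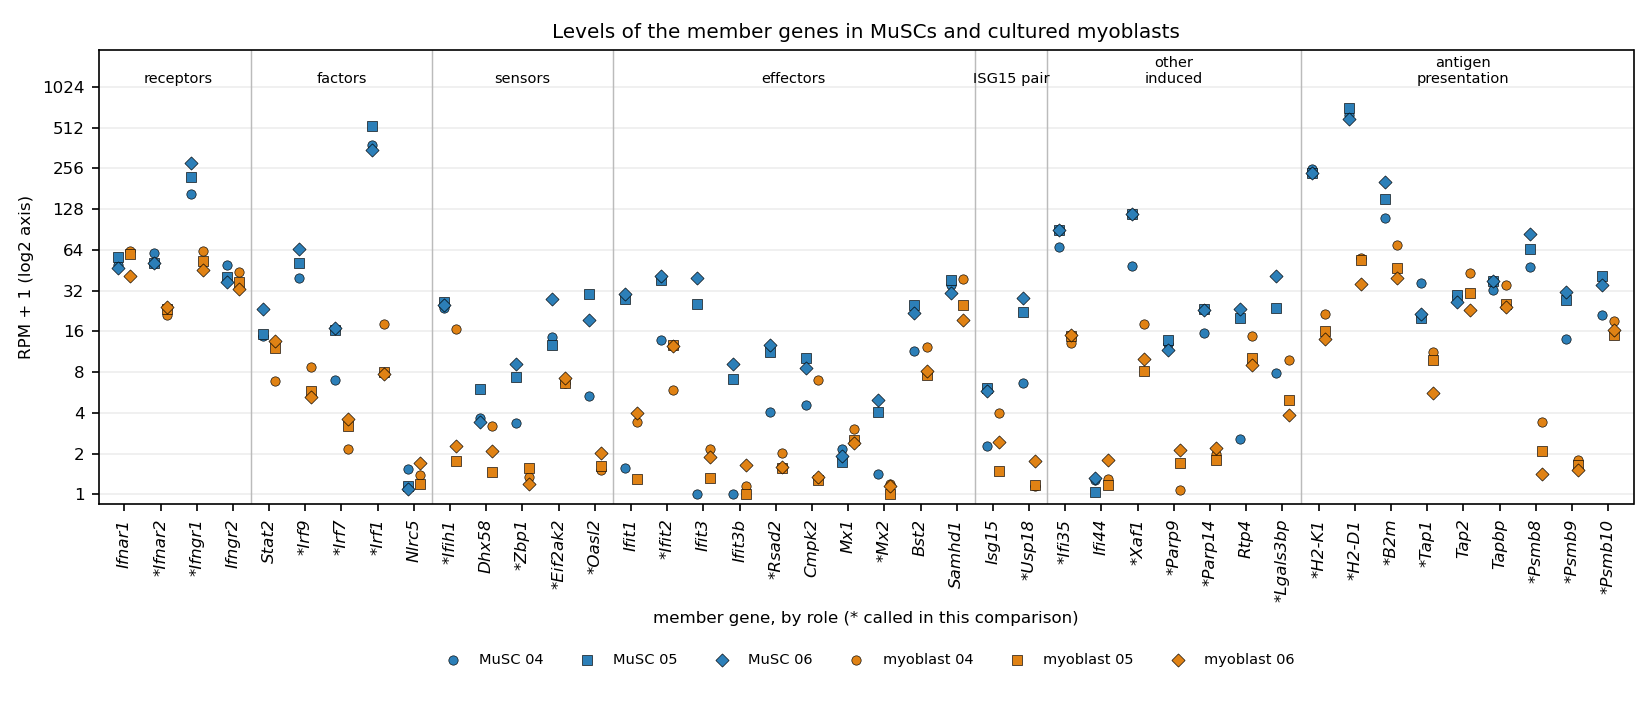
RPM + 1 on a log2 axis for the 42 member genes listed, with 1 point for each fresh MuSC (blue) and myoblast (orange) library, the replicate (mouse) given by the symbol and the 7 roles set apart by lines. An asterisk marks the 25 called genes, all lower in myoblasts, and the circles of MuSC 04 lie at the bottom of the blue points for most effectors.

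Sums of several marker lists for other cell types also differed between the groups. Such a difference does not show that those cells were present. The 8 fibro-adipogenic markers, of which 4 were called lower and 1 higher, summed to 2131 to 2347 RPM in MuSCs and 123 to 192 RPM in myoblasts, and most of the sum was Col3a1 and Dpt, while Pdgfra and Ly6a stayed under 3 RPM in all 6 libraries. The endothelial markers summed to 43.6 to 46.0 RPM and 11.4 to 21.2 RPM, with 1 of 8 called lower, and Kdr, Emcn, Cldn5 and Esam were not listed. The endothelial difference was mostly that of Tek, at 34.8, 28.9 and 25.6 RPM in MuSCs and 0.921, 0.275 and 0.0365 RPM in myoblasts, while Pecam1 overlapped between groups and Egfl7 was higher in each myoblast library, at 2.16 to 7.41 RPM beside 1.38 to 2.05 RPM. The 6 mural markers summed to 1121 to 1420 RPM in MuSCs and 1653 to 2427 RPM in myoblasts, most of it Acta2, and 1 of the 6, Kcnj8, was called lower. The 10 myofiber markers went from 127 to 364 RPM in MuSCs to 8960 to 20468 RPM in myoblasts, with 7 called higher. Leukocyte sums were 3.49 to 7.98 RPM and 3.69 to 4.89 RPM. Of the 7 myoblast markers, Myod1, Myog and Des were called higher in myoblasts, while Mki67, Top2a, Cdk1 and Ckb overlapped between groups. Myog was at 732, 720 and 524 RPM in MuSCs and 3374, 3344 and 4521 RPM in myoblasts. Mki67 was at 66.5, 99.2 and 110 RPM in MuSCs and 64.6, 102 and 49.2 RPM in myoblasts. The part of these markers in the falls of the members was not tested.

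The receptors split by chain. Ifngr1 was at 164, 220 and 281 RPM in MuSCs and 61.7, 51.6 and 44.4 RPM in myoblasts, with a log2 fold change of -2.03 (standard error 0.24, adjusted p = 0.000251 by limma). Ifnar2 was at 60.0, 49.8 and 50.5 RPM in MuSCs and 20.2, 22.6 and 23.1 RPM in myoblasts (log2 fold change -1.24, standard error 0.22, adjusted p = 0.00196 by limma). Neither pair of groups overlapped. The partner chains were not called: Ifnar1 was at 45.7 to 56.0 RPM in MuSCs and 40.3 to 62.1 RPM in myoblasts, and Ifngr2 at 35.9 to 48.2 RPM and 31.9 to 43.2 RPM.

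Irf1 had the lowest log2 fold change of the 42 members on the log2(RPM + 1) scale, where Psmb8 came next, whereas the ratio of group means was lower for Usp18 (0.0200) and Psmb8 (0.0205) than for Irf1 (0.0247). Irf1 was at 376, 526 and 348 RPM in MuSCs and 17.03, 7.04 and 6.80 RPM in myoblasts, and myoblast 04 was the highest of the cultured libraries. The log2 fold change was -5.30 (standard error 0.34, adjusted p = 9.7e-06 by limma). Irf9 was at 38.5, 50.5 and 63.7 RPM in MuSCs and 7.79, 4.795 and 4.25 RPM in myoblasts, a log2 fold change of -2.98 (standard error 0.32, adjusted p = 0.000140 by limma). Irf7, which amplifies type I interferon, was at 5.99, 15.5 and 16.01 RPM in MuSCs and 1.17, 2.20 and 2.59 RPM in myoblasts (log2 fold change -2.10, standard error 0.43, adjusted p = 0.00444 by limma). The groups overlapped in none of the 3. Stat2, with log2 fold change -0.75, and Nlrc5, under 1 RPM in all 6 libraries, were not called.

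Every sensor listed had lower values in all 3 myoblast libraries than in all 3 MuSC libraries, beside 26.8% of all genes. Of the 5, 4 were called lower, beside 20.6% of all tested genes. Oasl2 was at 4.35, 29.1 and 18.5 RPM in MuSCs and 0.507, 0.628 and 1.02 RPM in myoblasts, a log2 fold change of -3.10 (standard error 0.58, adjusted p = 0.00293 by limma). Ifih1 was even across MuSCs, at 22.8, 25.2 and 23.997 RPM, and uneven in myoblasts, at 15.7, 0.781 and 1.28 RPM. Myoblast 04 thus held most of the Ifih1 signal left after culture, and the call (log2 fold change -2.61, standard error 0.74, adjusted p = 0.0196 by limma) was lost in 4 of 14 alternatives, each of which left out a library. Zbp1 was at 2.36, 6.32 and 8.17 RPM in MuSCs and 0.348, 0.567 and 0.198 RPM in myoblasts (log2 fold change -2.16, standard error 0.40, adjusted p = 0.00257 by limma). Eif2ak2 was at 13.6, 11.8 and 26.9 RPM in MuSCs and 5.68, 5.65 and 6.27 RPM in myoblasts (log2 fold change -1.34, standard error 0.36, adjusted p = 0.0156 by limma), and its highest adjusted p without a library was 0.0533, without MuSC 06. Dhx58, a regulator of RNA sensors, was under 6 RPM in all 6 libraries and was not called.

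Of the 10 effectors, 3 were called lower, beside 20.6% of all tested genes. The effectors Bst2, Ifit1, Ifit3 and Ifit3b were called as well when MuSC 04 was left out. Rsad2, which encodes viperin, was at 3.09, 10.3 and 11.7 RPM in MuSCs and 1.03, 0.577 and 0.603 RPM in myoblasts, a log2 fold change of -2.28 (standard error 0.45, adjusted p = 0.00391 by limma). Ifit2 was at 12.8, 37.6 and 39.9 RPM in MuSCs and 4.91, 11.7 and 11.4 RPM in myoblasts (log2 fold change -1.51, standard error 0.49, adjusted p = 0.0339 by limma), with adjusted p up to 0.119 without MuSC 06. Mx2 was at 0.407, 3.04 and 3.97 RPM in MuSCs and 0.203, 0 and 0.162 RPM in myoblasts (log2 fold change -1.44, standard error 0.43, adjusted p = 0.0243 by limma), near the floor of the scale, and its call was lost when any of 4 libraries was left out (adjusted p up to 0.0829, without myoblast 05). In each of these, MuSC 04 was the lowest of the fresh libraries. Samhd1 overlapped between groups, at 34.1, 37.1 and 29.5 RPM in MuSCs and 38.3, 24.2 and 18.3 RPM in myoblasts (log2 fold change -0.36, 95% interval -1.04 to 0.31, limma adjusted p = 0.352). Mx1 was the member with all myoblast values above all MuSC values, at 1.38 to 2.02 RPM beside 0.722 to 1.17 RPM, and was not called.

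Usp18 was at 5.65, 21.1 and 27.0 RPM in MuSCs and 0.145, 0.173 and 0.759 RPM in myoblasts, a log2 fold change of -3.59 (standard error 0.53, adjusted p = 0.000853 by limma). Isg15 was low in every library, at 1.28 to 5.14 RPM in MuSCs and 0.488 to 2.97 RPM in myoblasts, and was not called. Of the other induced genes, Ifi35, a leucine zipper protein, was at 66.4, 89.0 and 89.0 RPM in MuSCs and 12.1, 13.9 and 14.1 RPM in myoblasts (log2 fold change -2.51, standard error 0.23, adjusted p = 5.7e-05 by limma). Xaf1 was at 47.8, 117 and 116 RPM in MuSCs and 17.1, 7.21 and 8.95 RPM in myoblasts (log2 fold change -2.94, standard error 0.42, adjusted p = 0.000685 by limma).

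Parp9 and Parp14, which act on ADP-ribosylation, were close to 0 after culture. Parp9 was at 11.9, 12.9 and 10.7 RPM in MuSCs and 0.0785, 0.713 and 1.13 RPM in myoblasts (log2 fold change -3.02, standard error 0.35, adjusted p = 0.000213 by limma). Parp14 was at 14.4, 22.5 and 22.0 RPM in MuSCs and 0.995, 0.809 and 1.19 RPM in myoblasts (log2 fold change -3.35, standard error 0.32, adjusted p = 7.4e-05 by limma). Lgals3bp, a secreted galectin-binding glycoprotein, was at 6.93, 22.9 and 40.1 RPM in MuSCs and 8.78, 4.00 and 2.83 RPM in myoblasts. Its groups overlapped through MuSC 04, and its log2 fold change was -1.79 (standard error 0.60, adjusted p = 0.0400 by limma). The limma adjusted p was 0.0722 with the mouse as a block. The call of Lgals3bp was lost in 6 of 14 alternatives, with a limma adjusted p of up to 0.137. Rtp4 was at 1.56, 19.0 and 22.3 RPM in MuSCs and 13.7, 9.14 and 8.04 RPM in myoblasts, so the cultured libraries lay between MuSC 04 and the other MuSCs, and it was not called. Ifi44 was under 1 RPM throughout.

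Of the 9 antigen presentation genes, 7 fell, beside 20.6% of all tested genes, and Tap2 and Tapbp were not called. H2-K1 was at 251, 235 and 237 RPM in MuSCs and 20.3, 15.02 and 13.1 RPM in myoblasts, a log2 fold change of -3.84 (standard error 0.22, adjusted p = 4.8e-06 by limma). H2-D1 was at 631, 717 and 593 RPM in MuSCs and 54.8, 52.8 and 35.0 RPM in myoblasts, a log2 fold change of -3.76 (standard error 0.22, adjusted p = 5.6e-06 by limma). Both heavy chains were even across the fresh libraries and far lower in each myoblast library. B2m was at 109, 151 and 201 RPM in MuSCs and 68.0, 46.3 and 38.8 RPM in myoblasts, with no overlap and a log2 fold change of -1.57 (standard error 0.29, adjusted p = 0.00255 by limma). The ratio of B2m to H2-K1 within a library was 0.435, 0.643 and 0.850 in MuSCs and 3.35, 3.09 and 2.96 in myoblasts.

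Tap1 was at 35.3, 19.0 and 20.6 RPM in MuSCs and 10.3, 8.87 and 4.58 RPM in myoblasts, and MuSC 04 was here the highest library (log2 fold change -1.55, standard error 0.38, adjusted p = 0.00997 by limma). Its partner chain Tap2 was at 25.3 to 28.7 RPM in MuSCs and 22.1 to 41.9 RPM in myoblasts. Tapbp, which encodes the peptide-loading protein tapasin, was at 31.3 to 36.7 RPM and 23.3 to 34.0 RPM. Both overlapped between groups and neither was called.

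The immunoproteasome has 3 catalytic subunits that replace those of the constitutive particle. Psmb8 was at 46.4, 63.7 and 82.3 RPM in MuSCs and 2.45, 1.08 and 0.411 RPM in myoblasts (log2 fold change -4.88, standard error 0.40, adjusted p = 3.2e-05 by limma). Psmb9 was at 13.0, 26.2 and 30.02 RPM in MuSCs and 0.794, 0.663 and 0.511 RPM in myoblasts (log2 fold change -3.78, standard error 0.38, adjusted p = 9.3e-05 by limma). Psmb10 was at 19.99, 40.3 and 34.0 RPM in MuSCs and 17.9, 14.002 and 15.4 RPM in myoblasts (log2 fold change -0.90, standard error 0.31, adjusted p = 0.0427 by limma). The groups of Psmb10 did not overlap, but its limma adjusted p was 0.0761 with the mouse as a block. Its call was lost in 6 of 14 alternatives, with a limma adjusted p of up to 0.152. The falls thus ran from over 4 on the log2 scale in Psmb8 to under 1 in Psmb10.

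Each subunit was then set against the constitutive subunit whose place it takes, within a library. The log2 ratio of Psmb8 to Psmb5 was -1.13 ± 0.34 (SD, n = 3) in MuSCs and -8.02 ± 1.44 in myoblasts. That of Psmb9 to Psmb6 was -5.57 ± 0.67 and -9.82 ± 0.30, and that of Psmb10 to Psmb7 was -1.13 ± 0.44 and -2.63 ± 0.15. All 3 ratios were lower in each myoblast library than in each MuSC library, with an exact two-sided permutation p of 0.1 for each, the smallest that 3 libraries against 3 can give. Psmb5 and Psmb7 rose in myoblasts, with log2 fold changes of 0.96 and 0.55 (limma adjusted p = 0.00271 and 0.0381), and Psmb6 fell by 0.82 on the log2 scale (limma adjusted p = 0.00858). Psmb8 was at 37.7%, 42.3% and 59.7% of the Psmb5 value in the MuSC libraries and at 1.00%, 0.417% and 0.136% in the myoblast libraries. Between WT and Nedd4L-cKO MuSCs the ratio of Psmb9 to Psmb6 differed by 1.02 on the log2 scale without overlap (exact two-sided permutation p = 0.1). The ratios of Psmb8 to Psmb5 and of Psmb10 to Psmb7 differed by 0.37 and -0.15 with overlapping groups (exact two-sided permutation p = 0.2 and 0.5).

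**Figure D3:**
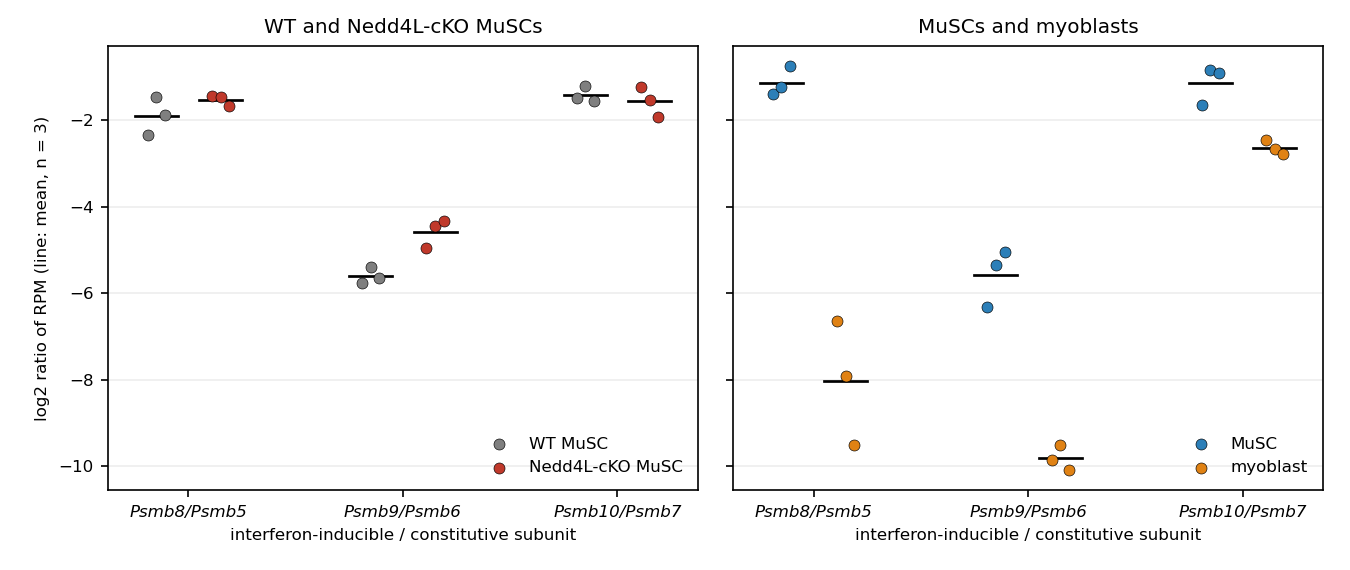
Log2 ratio of the RPM of an interferon-inducible proteasome subunit to that of the constitutive subunit it replaces, with 1 point per library and a line at each group's mean (n = 3), for WT and Nedd4L-cKO MuSCs (left) and for MuSCs and myoblasts (right). All 3 ratios are lower in myoblasts, with log2 differences of -6.89, -4.25 and -1.502, while of the genotype ratios the one of Psmb9 to Psmb6 does not overlap.

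The fresh MuSC libraries differed among themselves. MuSC 04 was the lowest of its group for 27 of 42 members (64.3%), beside 33.0% of all tested genes, and the median SD of the members in fresh MuSCs was 0.44 on the log2 scale, beside 0.29 over all genes. In 17 of 42 members (40.5%) MuSC 04 was under 50% of the mean of the other MuSCs, beside 13.2% of all genes. By role, the median of MuSC 04 relative to that mean was 24.7% over Isg15 and Usp18, 30.5% over the effectors, 85.3% over the antigen presentation genes and 108% over the receptors. Ifit1 was at 0.581 RPM in MuSC 04 and at 26.7 and 29.1 RPM in the other MuSCs. Ifit3 was listed at 0 in MuSC 04 and at 24.5 and 38.5 RPM in the others, and Ifit3b was likewise listed at 0 beside 6.14 and 8.14 RPM.

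Of the 17 members under 50%, 13 had a promoter in the table, and 6 of those 13 held an ISRE core. Among all members tested in culture that had a promoter, 8 held a core and 24 did not. The 6 included the paralogs Ifit3 and Ifit3b, whose windows were nearly identical, and the difference in share was not tested. H2-K1 (251 beside 235 and 237 RPM), H2-D1 and Tap1 were not lower in MuSC 04 than in both other libraries, and Irf1 was in the middle of its group. MuSC 04 also had the highest Cd34, a marker of quiescent MuSCs, at 437 RPM beside 128 and 175 RPM, and the lowest Mki67, a gene of dividing cells, at 66.5 RPM beside 99.2 and 110 RPM. The other markers of these lists were mixed. Pax7, Calcr, Chodl, Itga7 and Sdc4 were also highest in MuSC 04, while the MuSC markers Myf5 and Vcam1 were lowest there. Of the myoblast markers, Top2a, Cdk1 and Ckb were also lowest in MuSC 04, Myog was highest, and Myod1 and Des lay in the middle. The part of these markers in the difference was not tested. Without MuSC 04, 29 members were called lower in myoblasts. These were the same 25 and also Bst2, Ifit1, Ifit3 and Ifit3b.

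**Figure D4:**
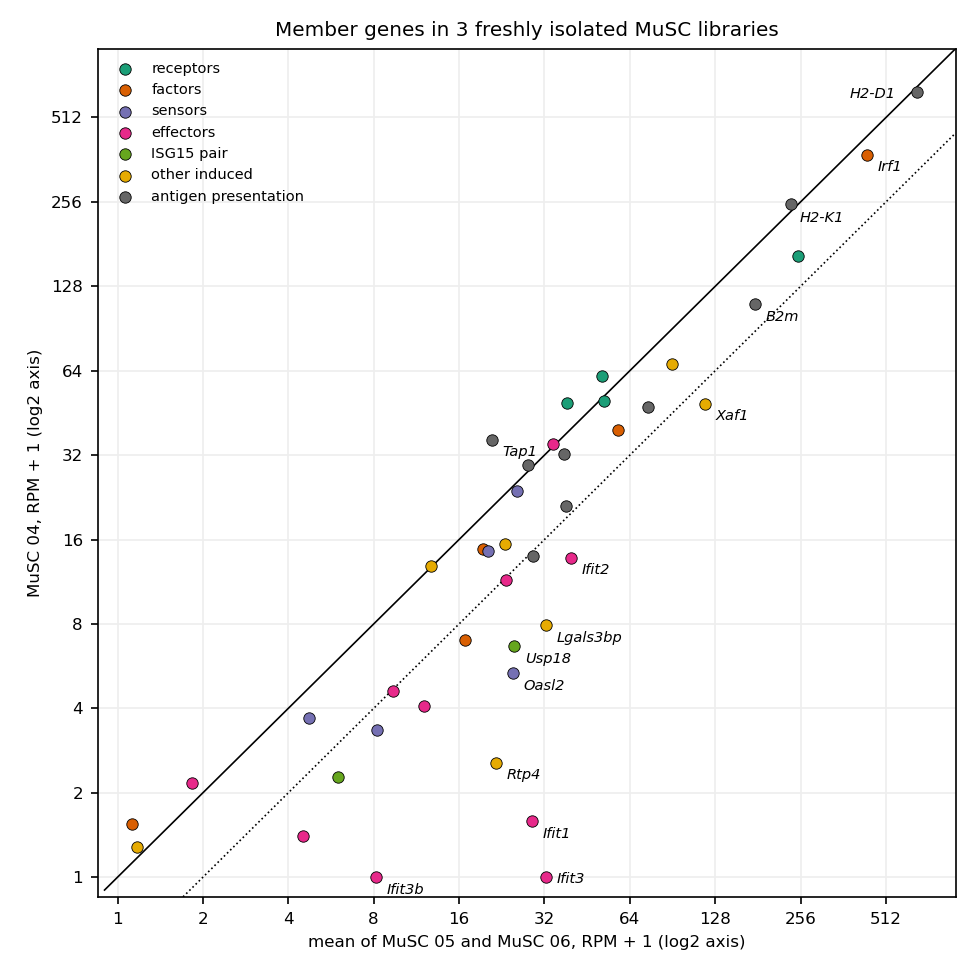
RPM + 1 of the 42 members in MuSC 04 (vertical) against the mean of MuSC 05 and MuSC 06 (horizontal), both on log2 axes and coloured by role, with equality as a solid line and 50% of the RPM + 1 value as a dotted line. Ifit1, Ifit3, Ifit3b, Rtp4, Oasl2 and Usp18 lie far below the dotted line, while H2-K1 and Tap1 lie above the solid line.

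Among the cultured libraries, myoblast 04 was the highest for 27 of 42 members (64.3%), beside 42.5% of all genes. It came from the same mouse as MuSC 04. Without myoblast 04, 27 members were called, 24 of them in the set of 25, with Ifit2 lost and Bst2, Cmpk2 and Dhx58 added. Without MuSC 06 or myoblast 05, 19 members were called, all in the set of 25. The members lost in both were Eif2ak2, Ifih1, Ifit2, Lgals3bp, Mx2 and Psmb10.

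Per kilobase of the canonical transcript, the 5 members with the highest levels were the same in WT MuSCs, Nedd4L-cKO MuSCs and fresh MuSCs: H2-D1, B2m, H2-K1, Irf1 and Ifngr1. In WT MuSCs, H2-D1 was at 222 ± 36.6 RPM per kilobase (SD, n = 3), B2m at 171 ± 61.9, H2-K1 at 143 ± 38.4, Irf1 at 115 ± 39.0 and Ifngr1 at 87.2 ± 4.67. Neighbours in this order differed by less than the larger of their SDs. In Nedd4L-cKO MuSCs, B2m led at 639 ± 56.6 RPM per kilobase, above H2-D1 at 271 ± 21.1. In myoblasts B2m led at 47.0 ± 13.97 RPM per kilobase, followed by Ifngr1 at 24.9 ± 4.10 and H2-D1 at 22.5 ± 5.15, and H2-K1 stood at 9.98 ± 2.31.

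**Figure D5:**
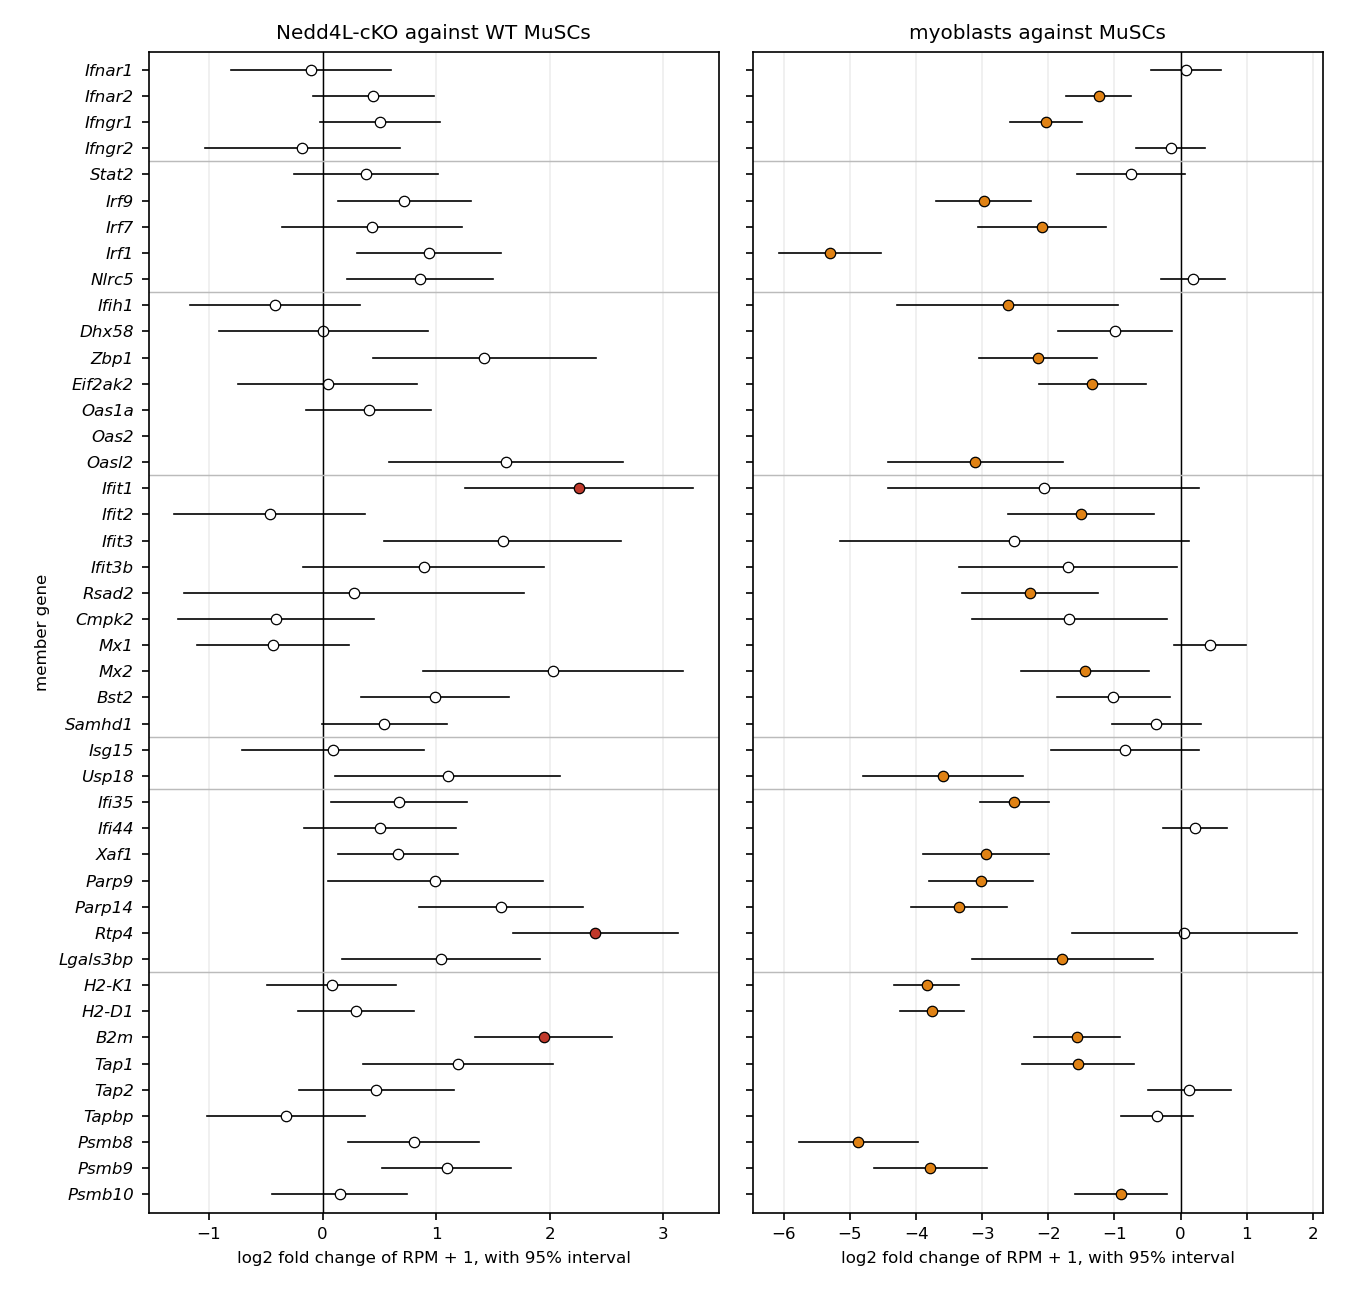
Log2 fold change of RPM + 1 with its 95% interval from limma for each member, between Nedd4L-cKO and WT MuSCs (left) and between myoblasts and MuSCs (right), with filled points for called genes. The 3 filled points on the left are above 0, the 25 on the right are below it, and Oas2 and, on the right, Oas1a have no value.

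The tables were normalized separately, so their levels can only be set side by side. B2m was at 149, 145 and 263 RPM in the WT MuSCs of the first table and 109, 151 and 201 RPM in the MuSCs of the second. Rtp4 was at 5.39 to 10.96 RPM in the former and 1.56 to 22.3 RPM in the latter. Ifit1 was at 2.79 to 7.58 RPM in the former and 0.581 to 29.1 RPM in the latter. The range of Ifit1 and Rtp4 over the 3 fresh MuSC libraries of the second table was thus wider than over the 3 WT libraries of the first, while that of B2m was of similar width. Ifit1 in MuSC 05 and MuSC 06, at 26.7 and 29.1 RPM, stood above Nedd4L-cKO 01 and 03, at 20.2 and 17.7 RPM. Nedd4L-cKO 02 was higher, at 56.6 RPM. Rtp4 and B2m, at most 22.3 and 201 RPM in fresh MuSCs, stayed below every Nedd4L-cKO library, at least 31.8 and 623 RPM. Of the 3 members that rose in Nedd4L-cKO MuSCs, B2m fell in myoblasts and Rtp4 and Ifit1 were not called there.

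Members with an ISRE core had a median log2 fold change of 0.89 between genotypes (9 genes, 2 called), beside 0.47 for the 24 with a promoter and no core (0 called). In myoblasts the medians were -1.64 (8 genes, 2 called) and -1.91 (24 genes, 18 called). These are descriptions over few genes, and the difference was not tested.

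The wider lists followed the same direction in culture in most genes and not in all. Of 47 interferon pathway genes tested, 27 fell, beside 20.6% of all tested genes, and 7 rose, beside 22.2%. Their median log2 fold change was -1.16. Socs3, a feedback inhibitor of cytokine receptors, was at 127.5, 184.5 and 177 RPM in MuSCs and 6.39, 5.53 and 4.77 RPM in myoblasts (log2 fold change -4.63, limma adjusted p = 3.8e-06). Ifitm3 was at 236, 581 and 702 RPM in MuSCs, with MuSC 04 again the lowest, and 72.6, 71.2 and 66.6 RPM in myoblasts (log2 fold change -2.69, limma adjusted p = 0.000488). The 7 that rose were Mavs and Sting1, adaptors of RNA and DNA sensing, and Oas3, Ifi204, Ifi203, Pml and Epsti1. Of these, Oas3, Ifi203 and Epsti1 were near the floor of the scale. Their means were 0.179, 0.227 and 0 RPM in MuSCs and 0.835, 0.793 and 0.711 RPM in myoblasts. Mavs was at 17.2, 9.67 and 13.8 RPM in MuSCs and 30.6, 52.4 and 38.3 RPM in myoblasts (log2 fold change 1.51, limma adjusted p = 0.00452).

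Of 28 further antigen presentation genes tested, 14 fell, beside 20.6% of all tested genes, and 4 rose, beside 22.2%. Their median log2 fold change was -0.81. The nonclassical class I genes H2-T22 and H2-T23 fell, with log2 fold changes of -2.92 and -2.85 (limma adjusted p = 0.000217 and 0.000131). Psme1 and Psme2, the interferon-inducible proteasome activator, fell, with log2 fold changes of -1.66 and -1.90 (limma adjusted p = 0.00252 and 0.000167). Psme3, the activator that interferon does not induce, was at 64.3, 77.6 and 89.6 RPM in MuSCs and 162, 155 and 144 RPM in myoblasts, and it rose (log2 fold change 1.00, limma adjusted p = 0.00332). Calr, a chaperone of class I folding, and Psmb5 and Psmb7 were the others that rose.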

How the data were processed

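RNA-seq of 12 libraries in 4 groups of 3 was analysed from 2 tables. The authors quantified 75 bp single-end reads with Kallisto 0.46.1 on GENCODE vM28, summed transcripts with tximport and deposited a signal, DESeq2-normalized counts, in a separate table per comparison. Columns of the authors' own comparisons (fold changes, standard errors, p-values) and RPM columns were not used. RPM here means these values divided by the mean of a table's 6 totals. The values are not whole, so reads were not recovered and depth is unknown. A gene was tested if 3 or more libraries held 10 or more normalized counts, on log2(RPM + 1), which understates changes of low genes, with limma 3.58.1 in R 4.3.3 (trend and robust options) and p-values adjusted by Benjamini-Hochberg over all genes tested. Calls needed an adjusted p of at most 0.05 and, between genotypes, also a mean of 5 RPM or more and a log2 fold change of 1 or more in either direction. The limma step was tested on simulated data.

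The members and the wider lists were chosen with earlier results of these data known. Values in every library with the test are given for called members and for the member with the highest mean RPM over the 6 libraries in each role, and other genes named were chosen after their values were seen. Libraries of the culture comparison pair by mouse, per the labels, although deviations of same-numbered libraries correlated at -0.031, -0.0050 and 0.018. No batch or date is given in the labels. Whether libraries of a group came from separate preparations is known only as far as the labels name separate mice. The labels number the mice, but what the numbers follow is not given. The part of mouse number in the differences between libraries was not tested. Gene positions and lengths came from GENCODE vM39 on GRCm39, and promoters from RefSeq on GRCm38.p6, with no conversion between builds. Annotation and plots used Python 3.11.15 with matplotlib 3.10.9. Alternatives were RLE and TMM factors, scaling to each library's own total, a pseudocount of 0.1, other filters and thresholds, no trend and robust options, a replicate block and each library left out.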

Additional observations from a re-analysis of the deposited data

How the results depend on the processing

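Between genotypes, 3 members were called, and 2 to 4 were called under the alternatives that kept all libraries. Leaving out a library gave 0 to 5 members, with 0 without Nedd4L-cKO 02 and 5 without WT 03. With the replicate block 2 members were called, and Ifit1 was lost at an adjusted p of 0.0504. Same-numbered libraries of that comparison come from different mice and their deviations correlated at 0.019, -0.023 and -0.18. The genotype difference in the log2 ratio of Psmb10 to Psmb7 was -0.15 and ran from -0.313 without Nedd4L-cKO 01 to 0.031 without Nedd4L-cKO 03. In culture 25 members were called, 22 to 26 under the alternatives that kept all libraries and 19 to 29 when a library was left out. The block gave 23, losing Lgals3bp and Psmb10, and it changed no other call of a named member there. Scaling each library to its own total moved the median log2 fold change of all genes to -0.091 between genotypes and 0.14 in culture. Except where stated, the cause of these shifts was not tested. No raw counts were used, so the limits that depth sets cannot be given.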
